A study of Mus musculus with 22 samples.

Results

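The genes described here are 10 genes that define or are abundant in white adipocytes, followed through RNA of whole mouse dorsal root ganglia (DRG) and of cultured DRG neurons: Adipoq, Plin1, Plin4, Cfd, Fabp4, Lep, Cidec, Retn, Pck1 and Car3. They were looked up by symbol among the 55487 genes of the deposited count tables, and all 10 were found. The list was drawn up with the imiquimod comparison of these libraries already known, so the members' differences between imiquimod and vehicle are given below as a description. Their numbers past a threshold in that contrast are printed beside the share or number over all genes, and nothing is read from them. For some alternatives in the closing section that share is missing. Of the 22 libraries, 10 came from ganglia and 12 from cultures. The ganglia, from thoracic and lumbar levels, came from Postn knockout mice (KO) treated for 5 days with imiquimod (IMQ, n = 2) or vehicle (n = 3) and from wild-type mice (WT) treated likewise with IMQ (n = 2) or vehicle (n = 3). The cultures were neurons labelled KO kept 72 h with recombinant periostin (rPOSTN, n = 3) or without it (control, n = 3), and WT neurons kept with rPOSTN (n = 3) or without it (n = 3). The labels give neither the allele nor the strain, age or sex of the mice, and do not say whether replicates were separate animals, so p-values measure the spread between these samples, which may be technical.

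White adipocytes store triglyceride in a single large lipid droplet and secrete hormones into the blood. Their droplet is coated by perilipins and enlarged by CIDE proteins, fatty acids reach it bound to carrier proteins, and glycerol for re-esterification is made through phosphoenolpyruvate carboxykinase. Sensory ganglia are not adipose tissue, but fat lies around ganglia and in the epineurium of nerves. Imiquimod is a Toll-like receptor agonist used to produce psoriasis-like skin inflammation in mice, and periostin, the product of Postn, is a matrix protein that can act on sensory neurons.

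Total counts ran from 16.7 to 22.3 M (mega counts) in the ganglion libraries and up to 24.1 M over all 22. Levels are counts per M counts (CPM) on library sizes scaled by TMM within each of the 3 deposited tables, and 1 count in a ganglion library was worth 0.0452 to 0.0607 CPM. Postn itself stood at 4.38 to 7.43 CPM in KO IMQ ganglia and 3.39 to 5.06 CPM in KO vehicle ganglia, against 43.3 to 49.7 CPM in WT IMQ ganglia and 20.9 to 26.3 CPM in WT vehicle ganglia. In cultures the gene went against part of the labels: the libraries labelled KO held 83.5, 71.8 and 456 CPM of Postn with rPOSTN and 111, 108 and 409 CPM without, against 678 to 988 CPM in WT with rPOSTN and 691 to 949 CPM in WT without. The replicates numbered 3 of both arms labelled KO thus lay above the other 4 libraries labelled KO and below all 6 WT cultures, and the rPOSTN comparison labelled KO is given with and without these 2 libraries. Among the ganglion libraries WT IMQ 2 stood apart in sex-linked genes: it had 0.176 CPM of Xist, transcribed from the inactive X chromosome, where the other 9 ganglion libraries had 196 to 236 CPM, and 62.6 CPM of the Y-linked gene Ddx3y. Cultures differed in these genes too. The WT cultures numbered 1 and 2 had 0.436 to 0.826 CPM of Xist and 77.7 to 85.1 CPM of Ddx3y. Those numbered 3 had 1180 and 1245 CPM of Xist and 0 CPM of Ddx3y. All cultures labelled KO held both, at 603 to 1247 CPM of Xist and 19.1 to 45.4 CPM of Ddx3y. Replicates of a group differed by more than counting error in every pair, with a chi-square per degree of freedom of 2.49 to 69.9.

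The upstream sequences of 4 members are shown because 3 of these genes were higher in every IMQ library than in every vehicle library and the fourth, Plin4, ran the other way in WT ganglia. Each is the 250 bases before the transcription start, 5′ to 3′ on the gene's strand, from RefSeq on build GRCm38.p6 (Adipoq at chr16:23146286-23146535 on the plus strand, Plin1 at chr7:79732777-79733026 on the minus strand, Cfd at chr10:79890603-79890852 on the plus strand and Plin4 at chr17:56109783-56110032 on the minus strand). Capitals mark C/EBP sites (TTGCNNAA) and CCAAT boxes (CCAAT), read on both strands.
Adipoq: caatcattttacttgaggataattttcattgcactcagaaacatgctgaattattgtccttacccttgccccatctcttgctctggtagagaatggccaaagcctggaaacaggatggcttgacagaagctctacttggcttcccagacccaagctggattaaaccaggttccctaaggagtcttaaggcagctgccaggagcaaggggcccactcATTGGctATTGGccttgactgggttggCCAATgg
Plin1: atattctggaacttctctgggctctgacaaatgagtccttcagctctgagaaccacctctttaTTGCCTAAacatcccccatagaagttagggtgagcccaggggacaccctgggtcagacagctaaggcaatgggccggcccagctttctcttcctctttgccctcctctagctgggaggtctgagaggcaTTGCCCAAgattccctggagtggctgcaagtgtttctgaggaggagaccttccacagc
Cfd: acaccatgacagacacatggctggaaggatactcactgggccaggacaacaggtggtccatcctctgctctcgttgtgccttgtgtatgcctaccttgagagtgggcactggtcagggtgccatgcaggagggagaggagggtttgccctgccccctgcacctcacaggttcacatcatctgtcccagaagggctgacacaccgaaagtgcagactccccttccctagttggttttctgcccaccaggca
Plin4: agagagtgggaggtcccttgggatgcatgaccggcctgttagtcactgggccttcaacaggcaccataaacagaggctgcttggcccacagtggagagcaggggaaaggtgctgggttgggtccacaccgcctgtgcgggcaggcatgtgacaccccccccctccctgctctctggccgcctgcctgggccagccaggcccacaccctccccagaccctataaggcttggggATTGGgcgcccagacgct
The RefSeq table held 8 of the 10 members. A C/EBP site, bound by factors of the adipocyte differentiation programme, stood in the upstream windows of 3 of 8 members (Plin1, Lep and Cidec), against 9.57% of 32817 windows of this length, and a CCAAT box in 2 of 8 (Adipoq and Plin4), against 33.8%. The PPAR response element, a direct repeat of AGGTCA with 1 base between the copies, a single AGGTCA and a TATA box (TATAAA) were in no window of the 8 members and in 0.0335%, 14.0% and 12.4% of all windows. A member counted once if any of its windows matched, whereas the shares are per window. Cidec had another window without the C/EBP site. All of these are matches of letters in 250 bases and say nothing of binding.

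Among genes of secreted adipocyte products, Cfd, Adipoq and Retn had all IMQ libraries above all vehicle libraries. Cfd, which encodes adipsin (complement factor D), stood at 7.54 and 5.15 CPM in KO IMQ ganglia, against 2.25, 1.36 and 1.16 CPM in KO vehicle ganglia. In WT ganglia it stood at 8.84 and 11.8 CPM after IMQ, against 1.42, 2.46 and 0.501 CPM after vehicle. Each of the 4 IMQ libraries thus lay above each of the 6 vehicle libraries, and the fitted log2 difference between IMQ and vehicle was 2.01 ± 0.47 (SE) in KO and 2.82 ± 0.47 in WT. The 4 IMQ libraries held 592 Cfd counts together and the 6 vehicle libraries 170. In a bulk sample, more cells of a type and more RNA per cell cannot be told apart.

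Adipoq, the gene of the adipocyte hormone adiponectin, had 2.26 and 1.12 CPM in KO IMQ ganglia, against 0.729, 0.362 and 0.263 CPM in KO vehicle ganglia. In WT it had 0.914 and 2.46 CPM with IMQ, against 0.651, 0.839 and 0.2 CPM with vehicle. The groups did not overlap, but the lower WT IMQ library lay close to the highest WT vehicle library, and the log2 differences carried wide errors, 1.93 ± 0.64 in KO and 1.57 ± 0.62 in WT. Leaving out WT IMQ 2 gave a WT value of 0.71, against 2.13 when WT IMQ 1 was left out. Retn, which encodes the hormone resistin, made by adipocytes in mice, had 0.754 and 0.829 CPM in KO IMQ ganglia, against 0.425, 0.317 and 0.158 CPM in KO vehicle ganglia. In WT ganglia Retn had 0.61 and 0.645 CPM with IMQ, against 0.237, 0.315 and 0 CPM with vehicle, where the count of 0 allows up to 0.15 CPM (3 counts, counting error only). Its log2 differences were 1.40 ± 0.63 in KO and 1.76 ± 0.70 in WT, the second of which was 1.16 without WT vehicle 3, the library with no count. Lep, the gene of leptin, was at the edge of detection: it had 2 and 2 counts in KO IMQ ganglia and 0, 2 and 0 in KO vehicle ganglia, with 2 and 1 counts in WT IMQ ganglia and 0, 1 and 0 in WT vehicle ganglia. These 10 counts did not pass the filter on low counts in any table and give no fold.

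**Figure D1:**
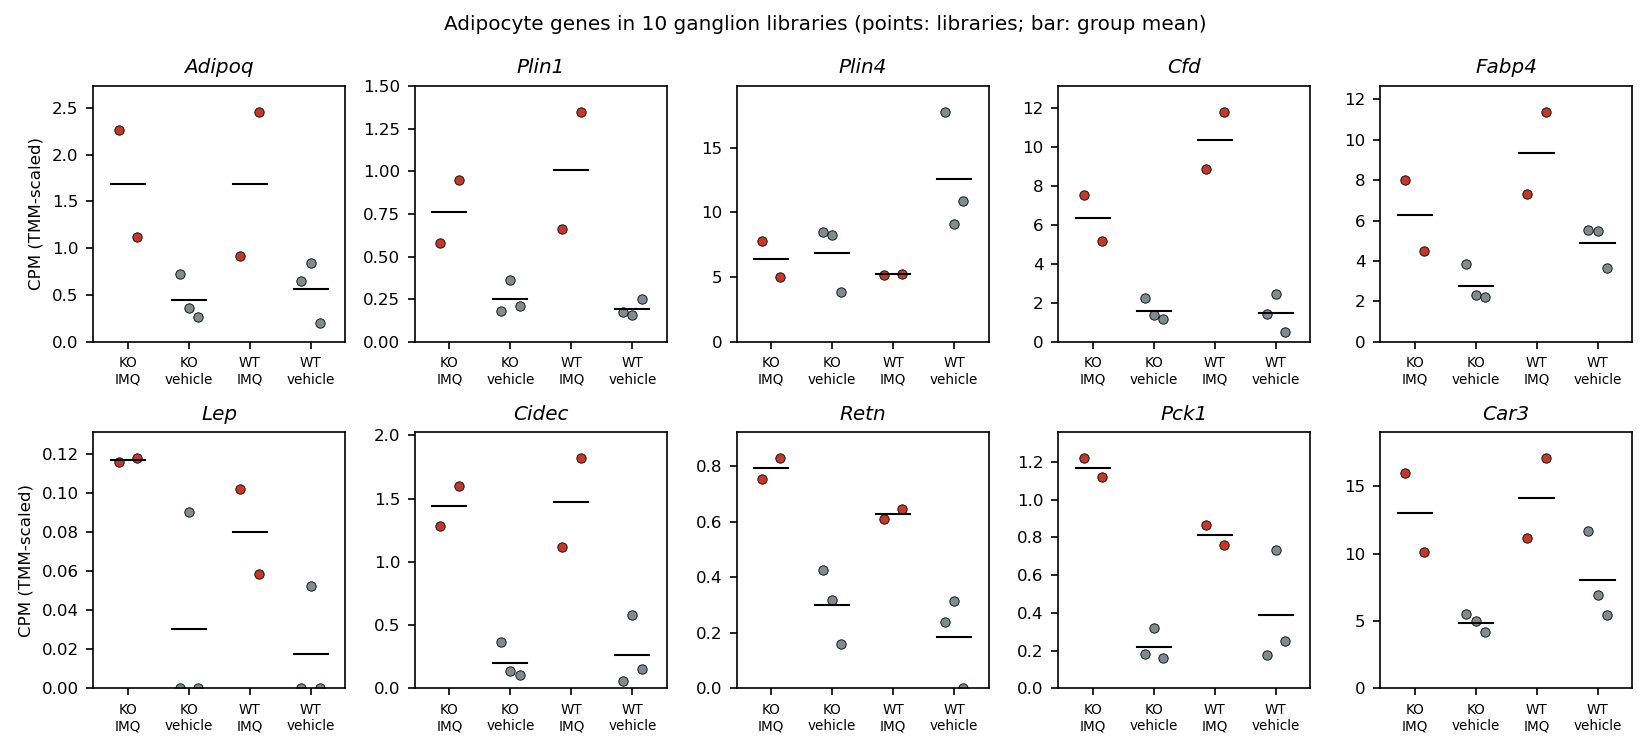
CPM of each of the 10 adipocyte genes in the 10 ganglion libraries, one panel per gene with its own vertical axis starting at 0; points are libraries, red for IMQ and grey for vehicle, and bars are group means. Cfd, Cidec, Plin1, Retn, Pck1 and Adipoq have all 4 IMQ points above all 6 vehicle points, whereas Plin4 is highest in the WT vehicle ganglia and Lep rests on 0 to 2 counts a library.

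Among the lipid droplet genes, Plin1 and Cidec had all IMQ libraries above all vehicle libraries, and Plin4 did not. Cidec, whose product fuses lipid droplets, had 1.28 and 1.6 CPM in KO IMQ ganglia, against 0.364, 0.136 and 0.105 CPM in KO vehicle ganglia. In WT ganglia it had 1.12 and 1.82 CPM with IMQ, against 0.0592, 0.577 and 0.15 CPM with vehicle, and its log2 differences were 2.85 ± 0.66 in KO and 2.42 ± 0.63 in WT (3.67 without WT vehicle 2). Counts were low: 102 in the 4 IMQ libraries and 26 in the 6 vehicle libraries. Plin1, the perilipin that coats the adipocyte droplet and gates lipolysis, had 0.58 and 0.947 CPM in KO IMQ ganglia, against 0.182, 0.362 and 0.211 CPM in KO vehicle ganglia. WT ganglia had 0.66 and 1.35 CPM of Plin1 with IMQ, against 0.177, 0.157 and 0.25 CPM with vehicle. The treatment groups were separate in both genotypes, by a log2 difference of 1.54 ± 0.48 in KO and 2.30 ± 0.49 in WT.

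Plin4, a perilipin of small and newly formed droplets, had another pattern. It stood at 7.77 and 5.03 CPM in KO IMQ ganglia, against 8.5, 8.28 and 3.85 CPM in KO vehicle ganglia, which overlapped. In WT ganglia it stood at 5.18 and 5.27 CPM with IMQ, against 17.8, 9.12 and 10.9 CPM with vehicle, so that both WT IMQ libraries lay below the 3 WT vehicle libraries. The log2 differences between IMQ and vehicle were −0.10 ± 0.38 in KO and −1.26 ± 0.39 in WT, and the KO value ran from −0.45 to 0.18 when single libraries were left out. Over the 10 ganglion libraries Plin4 had a Pearson correlation of −0.342 with the mean profile of the other tested members, where the other 8 had 0.747 to 0.939. These are descriptions over libraries that share 1 table and the treatment contrast, on which the list was chosen. With the group means subtracted Plin4 had 0.304, above Pck1 (0.238) and Plin1 (−0.0701).

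Plin4 lay beside another set of genes. The summed level of 7 myelinating Schwann cell genes, led by Pmp22 and Mbp, which encode proteins of compact myelin, was 3500 and 3250 CPM in KO IMQ ganglia, against 4960, 4010 and 4620 CPM in KO vehicle ganglia. In WT ganglia the sum was 3320 and 4170 CPM with IMQ, against 9580, 6180 and 5950 CPM with vehicle. The library with the highest Plin4, WT vehicle 1, also had the highest myelin sum, and the 3 WT vehicle libraries led the 10 on both. One of the 7 genes, Drp2, a dystrophin-related protein of the Schwann cell membrane, fell in WT IMQ ganglia (log2 −1.51 ± 0.17, edgeR adjusted p = 0.00163), and none of the 7 was called in KO. The part of myelinating cells in the Plin4 levels was not tested.

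**Figure D2:**
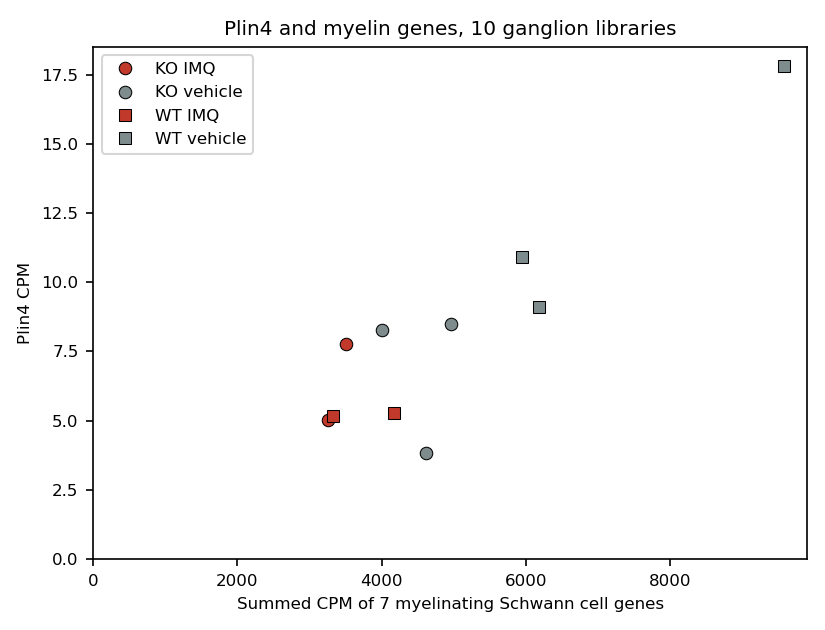
Plin4 CPM (vertical axis) against the summed CPM of 7 myelinating Schwann cell genes (horizontal axis) in the 10 ganglion libraries; circles are KO, squares WT, red IMQ and grey vehicle. The 3 WT vehicle libraries have both the highest Plin4 (9.12 to 17.8 CPM) and the highest myelin sums (5950 to 9580 CPM), and KO vehicle 3 has the lowest Plin4 (3.85 CPM) at a sum of 4620 CPM.

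Among genes of fatty acid handling and intermediary metabolism, Fabp4 and Pck1 had no overlap between treatments within either genotype, and Car3 overlapped in WT ganglia. Fabp4, the adipocyte fatty acid carrier, which capillary endothelium and macrophages also express, had 8.01 and 4.5 CPM in KO IMQ ganglia, against 3.83, 2.31 and 2.21 CPM in KO vehicle ganglia. In WT ganglia it had 7.32 and 11.4 CPM with IMQ, against 5.56, 5.51 and 3.65 CPM with vehicle. Within each genotype the groups were apart (log2 1.18 ± 0.35 in KO, 0.71 without KO IMQ 1, and 0.93 ± 0.33 in WT, 0.58 without WT IMQ 2), but KO IMQ 2 lay below 2 of the WT vehicle libraries. Pck1, the cytosolic phosphoenolpyruvate carboxykinase, had 1.22 and 1.12 CPM in KO IMQ ganglia, against 0.182, 0.317 and 0.158 CPM in KO vehicle ganglia. In WT ganglia Pck1 had 0.864 and 0.762 CPM with IMQ, against 0.177, 0.734 and 0.25 CPM with vehicle, where WT vehicle 2 had 14 counts and WT IMQ 2 had 13. Its log2 differences were 2.35 ± 0.53 in KO and 1.04 ± 0.51 in WT (1.88 without WT vehicle 2).

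Car3, carbonic anhydrase III, which is abundant in adipocytes and also in slow skeletal muscle, had 16 and 10.1 CPM in KO IMQ ganglia, against 5.53, 4.97 and 4.16 CPM in KO vehicle ganglia. In WT ganglia it had 11.2 and 17.1 CPM with IMQ, against 11.7, 6.92 and 5.41 CPM with vehicle. The KO groups were apart (log2 1.42 ± 0.33), whereas WT IMQ 1 lay below WT vehicle 1 and the WT groups overlapped (log2 0.82 ± 0.33, and 0.49 without WT IMQ 2).

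Counted over the list, 8 of the 9 members tested had a fitted log2 difference above 0 in each genotype. The members' median was 1.54 in KO and 1.57 in WT, where the median over all 17197 genes tested was −0.01 in both. In KO ganglia 0 of the 9 members passed an adjusted p of 0.05 (edgeR, 1.10% of all genes tested were called). An unadjusted edgeR p under 0.05 was found for 7 members in KO, and for 1442 of the 17197 genes. DESeq2 called 3 members in KO, Cfd, Cidec and Car3, among 275 genes. In WT ganglia 1 of the 9, Cfd, passed an adjusted p of 0.05 in edgeR (1.30% of all genes were called). An unadjusted edgeR p under 0.05 was found for 8 members in WT, among them Plin4, which fell, and for 1251 genes. DESeq2 called Cfd and Plin4 in WT, among 358 genes. The Cfd call in WT was lost without WT IMQ 1, without WT IMQ 2 or without WT vehicle 1. In terms of library order, 8 members had both KO IMQ libraries above all KO vehicle libraries (12.3% of genes tested) and 7 had both WT IMQ libraries above all WT vehicle libraries (11.4%), a number that stayed at 7 without WT IMQ 2, the library without Xist. The 6 members with all 4 IMQ libraries above all 6 vehicle libraries were Adipoq, Plin1, Cfd, Cidec, Retn and Pck1 (3.73% of genes tested). Since the list was chosen on this contrast, and since only 5 members (Adipoq, Plin4, Cfd, Fabp4 and Car3) passed the count filter on the vehicle libraries alone, so that the other 4 tested members were let in by their IMQ libraries, nothing is read from these counts.

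**Figure D3:**
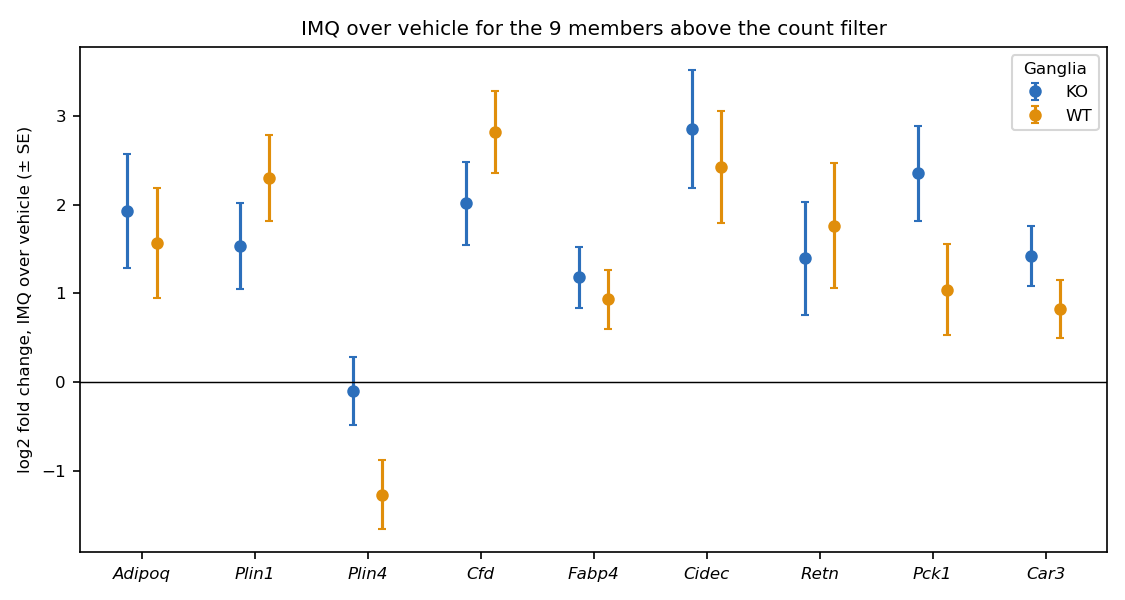
Fitted log2 fold change of IMQ over vehicle (vertical axis, points with SE bars) for the 9 adipocyte genes that passed the count filter, KO in blue on the left and WT in orange on the right of each gene. Of the 9 genes, 8 are above 0 in each genotype; Plin4 is at −0.10 in KO and −1.26 in WT.

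The IMQ libraries of 1 genotype were not alike. WT IMQ 2 exceeded WT IMQ 1 for 8 of the 10 members and was the highest of the 10 ganglion libraries for 6 (Adipoq, Plin1, Cfd, Fabp4, Cidec and Car3). KO IMQ 1 exceeded KO IMQ 2 for 6 members, among them Adipoq, Cfd, Fabp4 and Car3. The members did not keep 1 ratio to each other across libraries: there were 3.33 and 4.58 Cfd counts for each Adipoq count in KO IMQ ganglia and 3.08, 3.75 and 4.4 in KO vehicle ganglia, with 9.67 and 4.79 in WT IMQ ganglia and 2.18, 2.94 and 2.5 in WT vehicle ganglia. After the group means were subtracted, only differences between replicates remained. The 2 libraries of an IMQ group then deviated equally and oppositely, so fewer than 10 points were independent. Adipoq (Pearson r = 0.909), Cfd (0.869), Fabp4 (0.799) and Retn (0.772) then still followed the mean of the other tested members over the 10 libraries. Car3 (0.588) and Cidec (0.512) followed it less closely, and Plin4 (0.304), Pck1 (0.238) and Plin1 (−0.0701) least.

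Whether the IMQ difference of these genes depended on Postn is a comparison the list was not chosen on. No member's IMQ effect differed between the genotypes past the threshold: edgeR called 0 of the 9 members, as it called 0% of all genes, with every adjusted p at 0.999. None of the 9 members and 364 of all genes had an unadjusted p under 0.05, and DESeq2 called 0 members and 5 genes. The difference of the log2 effects, KO minus WT, was 1.31 ± 0.75 for Pck1 (95% interval −0.38 to 3.00), 1.16 ± 0.54 for Plin4 (−0.04 to 2.37) and −0.80 ± 0.68 for Cfd (−2.32 to 0.71). With 2 IMQ libraries a genotype these intervals are wide, and a miss of the threshold does not show equal effects. Pck1, Plin1, Cidec and Retn entered this test only through their IMQ libraries, since they failed the count filter on the vehicle libraries alone, so nothing is read from the count of 9 or its median. The median over the 9 members was 0.36, and it ran from −0.23 to 0.81 when single libraries were left out.

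In vehicle ganglia, Plin4, Fabp4 and Car3 had lower levels in KO at an unadjusted p under 0.05, and none passed the adjusted threshold. Plin4 averaged 6.88 ± 2.63 CPM in KO and 12.6 ± 4.6 CPM in WT (SD, n = 3 each), a log2 difference of −0.87 ± 0.33. Fabp4 averaged 2.78 ± 0.906 CPM in KO and 4.91 ± 1.09 CPM in WT (−0.83 ± 0.32), and Car3 averaged 4.89 ± 0.687 CPM in KO and 8.01 ± 3.29 CPM in WT (−0.71 ± 0.31). Their unadjusted p-values from edgeR's model were 0.0265, 0.0274 and 0.0465, the 3 members under 0.05, and the adjusted p was 1.0 for each. Each of the 3 genes was lower in KO in all 3 same-numbered pairs. They were picked by their p-values in these same libraries, and no share over all genes stands beside that order, so nothing is read from it. With the replicate number as a block the log2 differences were −0.89, −0.83 and −0.67, with edgeR adjusted p of 0.649, 0.887 and 0.997 (over all alternatives 0.649 to 1.0 for Plin4 and 0.742 to 1.0 for Fabp4 and Car3). Over all genes 0.0116% were called by edgeR and 530 had an unadjusted p under 0.05; DESeq2 called 30 genes and 0 members. Cfd averaged 1.59 ± 0.58 CPM in KO and 1.46 ± 0.983 CPM in WT, with a log2 difference of 0.11 ± 0.48 and a 95% interval of −0.97 to 1.19. Pck1 differed by −0.79 ± 0.56 and Retn by 0.70 ± 0.72. Both failed the count filter on the vehicle libraries alone and were tested only through their IMQ libraries. In vehicle ganglia Pck1 had 13 counts in KO and 22 in WT, and Retn 17 and 10, so nothing is read from these values. The 7 myelin genes summed to 4010 to 4960 CPM in KO vehicle ganglia and 5950 to 9580 CPM in WT vehicle ganglia, and 13 skeletal muscle genes to 8.48 to 42.7 CPM in KO and 11.2 to 190 CPM in WT, which overlapped; their part in the differences of Plin4, Fabp4 and Car3 was not tested.

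After IMQ, Cfd and Fabp4 had the lowest differences between the genotypes and Pck1 the highest, and no member passed the test. Cfd averaged 6.35 ± 1.69 CPM in KO and 10.3 ± 2.08 CPM in WT (SD, n = 2 each), a log2 difference of −0.70 ± 0.47 with a 95% interval of −1.76 to 0.36. Pck1 averaged 1.17 ± 0.0662 CPM in KO and 0.813 ± 0.072 CPM in WT, a difference of 0.52 ± 0.50. The libraries of KO and WT did not overlap for these genes, nor for Retn. Lep was apart in CPM only, with 2 and 2 counts in KO and 2 and 1 in WT. With 2 libraries a group and no share over all genes beside it, nothing is read from the order of the libraries. Fabp4 averaged 6.25 ± 2.48 CPM in KO and 9.37 ± 2.91 CPM in WT, a difference of −0.58 ± 0.36 between groups that overlapped. The edgeR test called 0 of the 9 members and 0.00581% of all genes, with the lowest adjusted p of a member at 0.997. None of the members had an unadjusted p under 0.05, against 318 of all genes, and DESeq2 called 0 members and 4 genes. The median over the members was −0.02.

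In cultured neurons most of the adipocyte genes were near the limit of detection, and Car3 was not. Cfd had 6 counts in all 12 culture libraries together, 7 of which had none, where the 10 ganglion libraries had 762. Lep had 3 counts, all in the library labelled KO rPOSTN 3, one of the 2 with high Postn. Pck1, Cidec, Plin1, Retn and Adipoq had 15, 22, 26, 40 and 43 counts over the 12 libraries, and of the 10 members only Plin4, Fabp4 and Car3 passed the count filter. Fabp4 ranged from 1.02 to 2.67 CPM in cultures and from 2.21 to 11.4 CPM in ganglia, and Plin4 from 0.273 to 1.85 CPM in cultures and from 3.85 to 17.8 CPM in ganglia. Car3 ranged from 6.94 to 22 CPM in cultures (median 12) and from 4.16 to 17.1 CPM in ganglia (median 8.52), and its 8 group means formed an order in which each group overlapped the next. Ganglia and cultures are in tables scaled separately and differ in tissue and handling at once, so these levels are set side by side without a test.

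**Figure D4:**
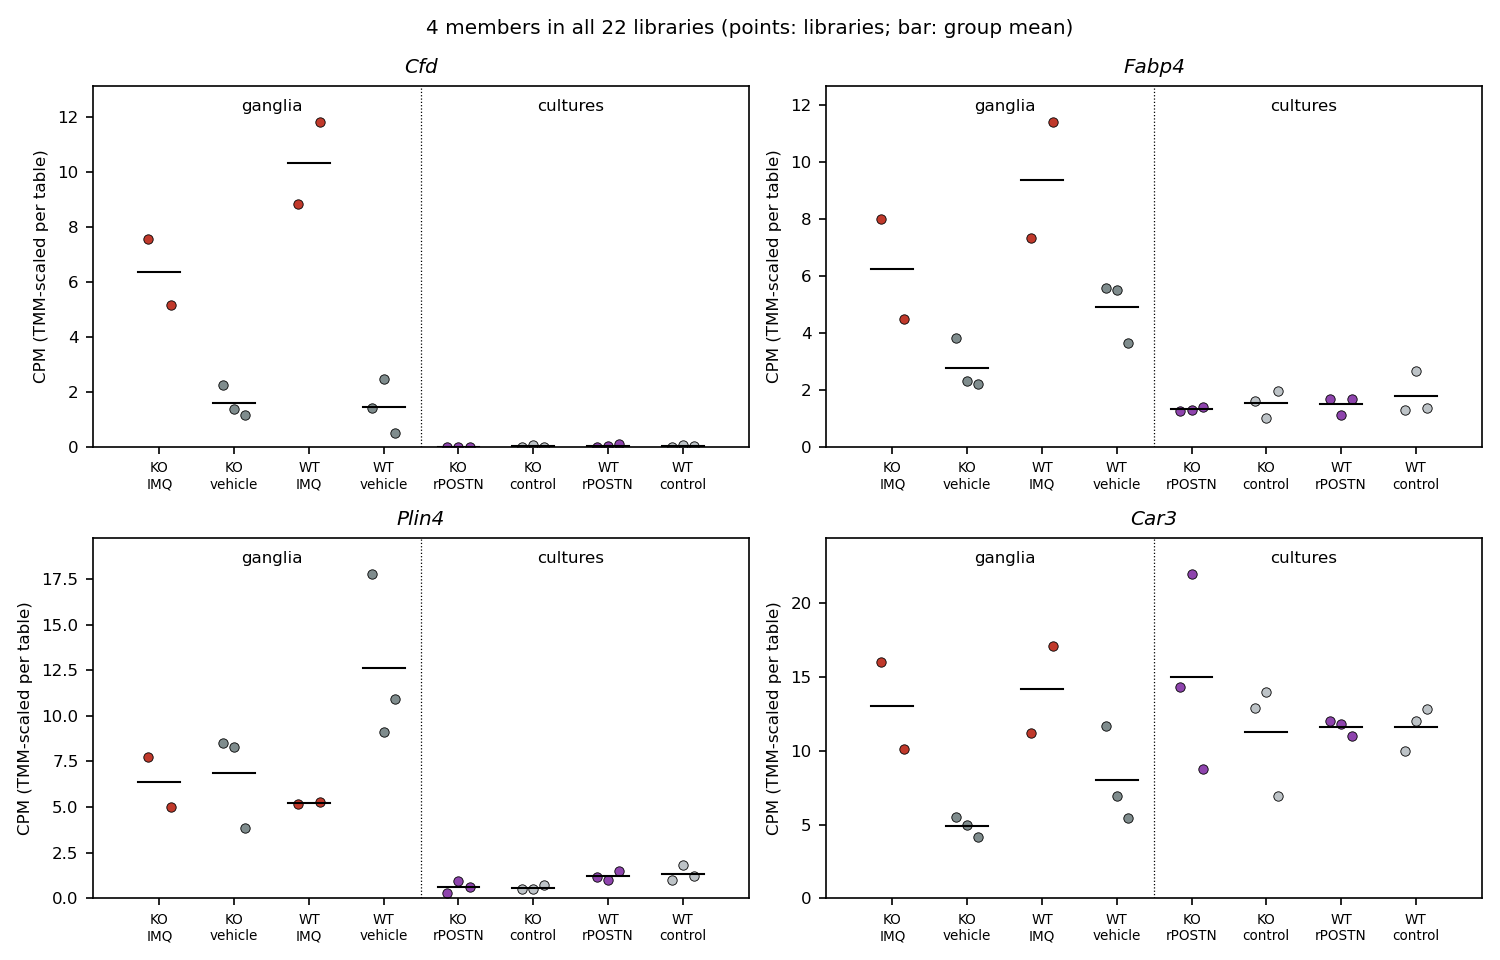
CPM of Cfd, Fabp4, Plin4 and Car3 (vertical axes from 0) in all 22 libraries by label, ganglia on the left and cultures on the right of the dotted line; points are libraries and bars are group means. Cfd is at or near 0 in all 12 cultures, Plin4 is lower in every culture than in every ganglion library, Fabp4 is mostly lower (1.02 to 2.67 CPM, against 2.21 to 11.4 CPM in ganglia), and Car3 spans 6.94 to 22 CPM in cultures and 4.16 to 17.1 CPM in ganglia.

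None of the 3 members that could be tested in culture passed the test for recombinant periostin. In neurons labelled KO Car3 averaged 15 ± 6.65 CPM with rPOSTN and 11.3 ± 3.79 CPM without (SD, n = 3 each; log2 0.41 ± 0.36, 95% interval −0.42 to 1.25), Fabp4 differed by −0.22 ± 0.39 and Plin4 by 0.09 ± 0.57, all at an adjusted p of 1.0 in edgeR. In WT neurons Car3 averaged 11.6 ± 0.497 CPM with rPOSTN and 11.6 ± 1.42 CPM without (log2 0.00 ± 0.11, interval −0.24 to 0.23), Fabp4 differed by −0.26 ± 0.32 and Plin4 by −0.16 ± 0.32, all at an adjusted p of 0.999. The Car3 interval in WT neurons is the narrowest of any member in the 7 comparisons. No gene passed in either culture (0% of 16756 genes tested in those labelled KO and 0% of 16639 in WT); 155 genes in those labelled KO and 661 in WT had an unadjusted p under 0.05, DESeq2 called 0 in both, and none of the 3 members was under 0.05. With the replicate number as a block, 8 genes were called in WT cultures and none of them was a member. Without both libraries labelled KO and numbered 3, a choice made after seeing the data, Car3 differed by 0.43 and Fabp4 by −0.0484 in the cultures labelled KO, both at an adjusted p of 1.0 in edgeR (0.979 to 1.0 for Car3 and 0.997 to 1.0 for Fabp4 over all alternatives), and Plin4 did not pass the count filter.

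Other genes of white adipocytes were taken from a second list. Of 30 further genes of lipid synthesis, storage and adipocyte differentiation, 24 passed the count filter in ganglia, and 1 was called with IMQ in each genotype (4.17% of the 24, against 1.10% of all genes in KO and 1.30% in WT). In KO ganglia 1 rose with IMQ, Cd36, a fatty acid transporter that macrophages and capillaries also carry (log2 0.99 ± 0.16, edgeR adjusted p = 0.0188), and 14 of the 24 were above 0 with a median of 0.04. In WT ganglia 1 rose, Lpl, the lipoprotein lipase, which macrophages also make (0.77 ± 0.15, adjusted p = 0.044), and 12 of the 24 were above 0 with a median of 0.02. The 6 most abundant of the list are genes that neurons or glia also use: Sncg (γ-synuclein), Scd1 (stearoyl-CoA desaturase), Trarg1 (a regulator of glucose transporter trafficking), Acly (ATP citrate lyase), Fasn (fatty acid synthase) and Acaca (acetyl-CoA carboxylase). Scd1 differed by 0.41 ± 0.24 in KO and 0.35 ± 0.24 in WT, and Sncg by −0.71 ± 0.37 in KO and −0.26 ± 0.36 in WT, neither called; the other 4 lay between −0.10 and 0.24. The summed level of the 30 genes was 4840 to 5030 CPM in KO IMQ ganglia, against 5000 to 6550 CPM in KO vehicle ganglia, and 5110 to 5550 CPM in WT IMQ ganglia, against 4920 to 6180 CPM in WT vehicle ganglia. The 6 that failed the filter were Acvr1c, Adrb3, Slc7a10, Lgals12, Adig and Aqp7. They had 25, 20, 13, 11, 10 and 3 counts in the 4 IMQ libraries and 27, 13, 19, 16, 5 and 2 in the 6 vehicle libraries. These totals cover unlike numbers of libraries, and in CPM the IMQ and vehicle libraries overlapped for each of the 6.

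Markers of tissues that lie around a ganglion were set beside the members. The summed level of all 10 members was 45.5 and 30.5 CPM in KO IMQ ganglia, against 22, 18.5 and 12.3 CPM in KO vehicle ganglia. In WT ganglia it was 36.8 and 52.6 CPM with IMQ, against 37.8, 26.7 and 21.3 CPM with vehicle, so that the WT groups overlapped and the KO groups did not. Skeletal muscle genes varied widely within groups. Without Pvalb, which proprioceptive neurons express and which was set aside after its values were seen, 13 muscle genes summed to 145 and 13.3 CPM in KO IMQ ganglia, against 10.7, 42.7 and 8.48 CPM in KO vehicle ganglia. In WT ganglia they summed to 87.1 and 112 CPM with IMQ, against 190, 11.2 and 150 CPM with vehicle. The part of muscle tissue in the members' levels was not tested. No muscle gene was called in either genotype.

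Most macrophage genes rose with IMQ in both genotypes. The 12 genes, led by C1qb, a complement component, and Ctss, a lysosomal protease, summed to 473 to 548 CPM in KO IMQ ganglia, against 131 to 162 CPM in KO vehicle ganglia, and to 567 to 627 CPM in WT IMQ ganglia, against 125 to 159 CPM in WT vehicle ganglia. By edgeR 10 of the 12 rose with IMQ in KO and 10 of the 12 in WT (1.10% and 1.30% of all genes called). Endothelial genes summed to 172 to 173 CPM in KO IMQ ganglia, against 135 to 157 CPM in KO vehicle ganglia, and to 158 to 203 CPM in WT IMQ ganglia, against 149 to 172 CPM in WT vehicle ganglia, and none of the 12 was called. Red cell genes ran the other way, and none of the 7 was called in either genotype. They summed to 22.2 to 29.1 CPM in KO IMQ ganglia, against 43.5 to 493 CPM in KO vehicle ganglia. In WT ganglia they summed to 33.3 to 47.5 CPM with IMQ, against 110 to 152 CPM with vehicle. What fat around the ganglion, macrophages, vessels or blood contributed to the members' levels was not tested.

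**Figure D5:**
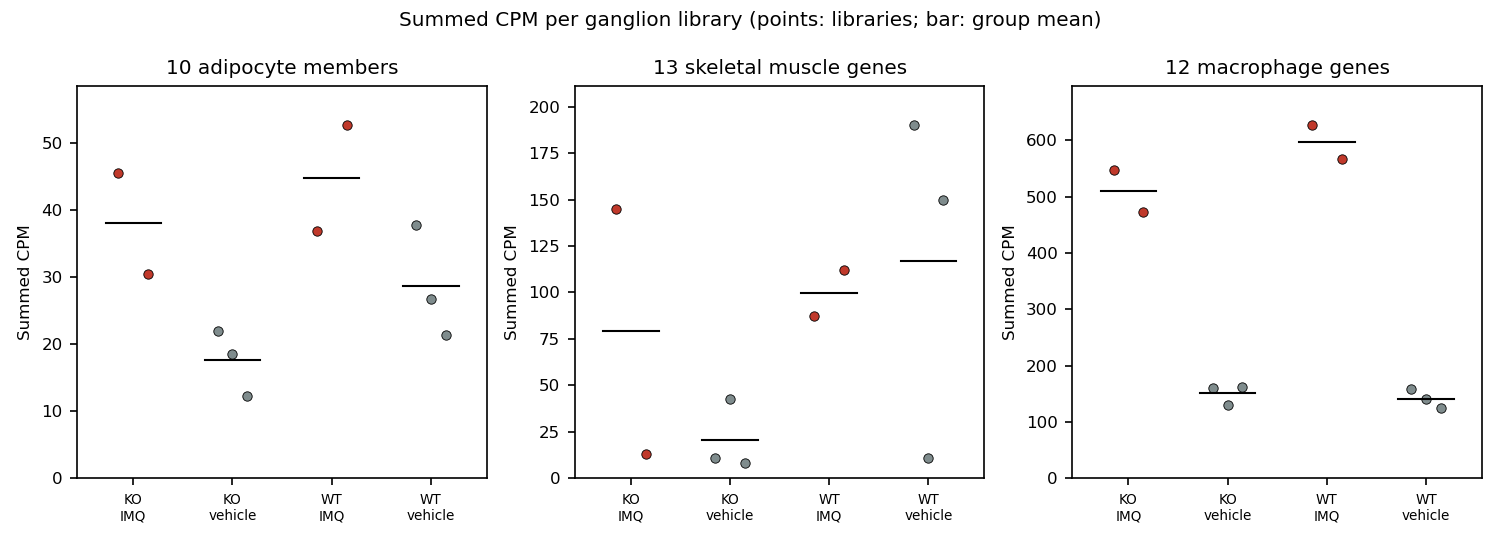
Summed CPM per ganglion library (vertical axes from 0) of the 10 adipocyte genes, 13 skeletal muscle genes and 12 macrophage genes; points are libraries, red for IMQ and grey for vehicle, and bars are group means. The adipocyte sum separates IMQ from vehicle in KO and overlaps in WT (36.8 CPM in WT IMQ 1, 37.8 CPM in WT vehicle 1), the macrophage sum is 473 CPM or more in every IMQ library and 162 CPM or less in every vehicle library, and the muscle sum ranges from 8.48 to 190 CPM.

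The genes outside the list whose profile was most like the members' mean over the 10 ganglion libraries were Folr2 (Pearson r = 0.988), a folate receptor of tissue-resident macrophages, Plscr1 (0.971), an interferon-inducible scramblase, Cysltr1 (0.964), a leukotriene receptor, and Tmem45a (0.959), followed by Mov10, Rcsd1, Apobec3, Cyp2e1, Sirpb1b, Igsf6, Mcl1 and Bgn at 0.958 down to 0.941. After the group means were subtracted, Cysltr1 (0.966), Fblim1 (0.965), Islr (0.961), Prss23 (0.958), Plscr1 (0.948) and Folr2 (0.943) led, and Itga10, Cnn1, Inmt, Tor1aip2 and Mrgprf followed at 0.941 down to 0.937. The 10 libraries share 1 table, 1 scaling and the treatment contrast, and the genes named are the top of 17197. With the group means subtracted they give fewer than 10 independent points.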

How the data were processed

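The authors deposited unnormalized counts of reads for 55487 Ensembl genes in 3 tables: ganglia, WT cultures and cultures labelled KO. Per the labels' protocols, RNA was selected by its poly-A tail, copied in a stranded way with dUTP and read from both ends. Per the submitters' processing notes, HISAT2 2.1.0, Bowtie2 2.2.3, TopHat2 and GRCm39 were used, with no role or order; the sources used here do not name the counting tool, strand setting or annotation, so overlapping genes may share reads. Symbols came from GENCODE (55141 IDs matched), an annotation of another build, and gene coordinates are not printed.

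From the counts, edgeR 4.0.16 (R 4.3.3) was used with filterByExpr, TMM scaling and robust two-sided quasi-likelihood tests, adjusted by Benjamini-Hochberg across the genes that passed, with a threshold of 0.05. The 10 ganglion libraries were fitted together and each culture table alone. SE is the log2 difference over the root of F, and 95% intervals use the t quantile of the fit. DESeq2 1.42.0 and the other alternatives stand in the closing section. The script was tested on simulated counts. Likeness used log2(CPM + 0.5), standardised per gene. Members, lists and alternatives were chosen with earlier results of these data known. Named were all 10 members, the 6 most abundant further adipocyte genes, Ucp1 and Cidea, the 12 most alike genes, and the 2 most abundant genes of the tissue lists. Some genes that the rule or the lists would name are not reported here, and the myelin sum leaves such a gene out. Drp2, Lpl, Cd36, Dio2 and the genes that failed the filter were named after their values were seen. Intervals and floors cover counting error only where they rest on counts, since the reads carry no molecular identifiers.

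Same-numbered replicates deviated together with correlations of 0.39, 0.714 and 0.634 in cultures labelled KO, 0.377, 0.368 and 0.678 in WT cultures and 0.872, 0.83 and 0.161 between KO and WT vehicle ganglia, so these numbers were taken to pair the samples. The main tests carry no block for this pairing, so their p-values and intervals ignore it, and the block is given as an alternative. KO IMQ ganglia deviated with KO vehicle ganglia at 0.754 and 0.76 and with WT vehicle ganglia at 0.723 and 0.627. WT IMQ and WT vehicle ganglia had 0.237 and 0.223, and KO and WT IMQ ganglia 0.0503. In an IMQ group the 2 libraries deviate from their mean equally and oppositely, so the values of the 2 numbers are not separate. IMQ groups were not taken as paired, although the KO IMQ values were high.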

Additional observations from a re-analysis of the deposited data

How the results depend on the processing

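Each comparison was repeated with DESeq2, with DESeq2 size factors, without the count filter, with the replicate number as a block, on the compared groups alone, without each library in turn and, in the cultures labelled KO, without both libraries numbered 3. Of 345 log2 differences of members recomputed in this way, 334 kept their sign. The 345 cover every tested member only for IMQ against vehicle, the contrast the list was chosen on, and in cultures. In the other ganglion comparisons they cover picked members, such as Cfd and Pck1 for KO against WT after IMQ. The members' median, not among the 345, changed sign in those comparisons without single libraries (−0.38 to 0.31 for KO against WT after IMQ). The 11 that did not keep their sign were Plin4 under IMQ in KO ganglia and members in cultures, all without 1 library. In KO ganglia, IMQ against vehicle called 3 members with DESeq2 (Cfd, Cidec and Car3), among 275 genes. Without the filter IMQ against vehicle called 2 members in KO (Cidec and Pck1), against 0. On the 2 groups alone it called 58 genes, against 190. In WT ganglia, IMQ against vehicle called 2 members with DESeq2 (Cfd and Plin4), 3 without the filter (Plin1, Cfd and Cidec) and 3 with the replicate block (Plin1, Plin4 and Cfd), against 1, and 358 genes with DESeq2, against 224. No share over all genes stands beside the member counts without the filter or with the replicate block. The list was chosen on this contrast, so nothing is read from any of these member counts. The summed level of the 10 members had a log2 IMQ over vehicle ratio of 0.66 in WT and 1.71 without Plin4 and Car3, a choice made after seeing the data.

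The difference of the IMQ effects gave 5 genes with DESeq2 and 2 without the filter, against 0. KO against WT in vehicle ganglia gave 30 genes with DESeq2, 22 without the filter and 1 on the 2 groups alone, against 2. KO against WT in IMQ ganglia gave 4, 2 and 5 genes under those settings, against 1. In WT cultures rPOSTN gave 2 genes without the filter and 8 with the replicate block, against 0. No member was among the calls of these 4 comparisons under any of these settings, and the replicate block changed no other count of calls by over 1.5 times. The causes were not tested.

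Without single libraries, IMQ against vehicle called 56 to 165 genes in KO, and 82 to 160 genes and 0 to 2 members in WT. The difference of the effects called 0 to 1 genes, KO against WT 0 to 2 in vehicle and 0 to 1 in IMQ ganglia. In cultures labelled KO Fabp4 ran from −0.43 to 0.0014 and Plin4 from −0.35 to 0.44 (log2). In WT cultures Car3 ran from −0.0948 to 0.0751, Fabp4 from −0.43 to 0.14 and Plin4 from −0.35 to 0.11. Leaving out 1 of 2 IMQ libraries assumes that the lone library varies like the other groups. Depth limits Lep, Retn, Pck1, Plin1 and Cidec most, which rest on 0 to 31 counts a ganglion library.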

Other observations

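Among genes of brown and beige fat, Ucp1, the uncoupling protein of brown adipocytes, had 0.117 to 0.305 CPM in the 4 IMQ ganglion libraries and 0.1 to 1.15 CPM in the 6 vehicle libraries, and Cidea, a droplet protein of brown fat, had 1.95 to 2.67 CPM with IMQ and 1.94 to 2.95 CPM with vehicle. Dio2, the deiodinase that activates thyroid hormone, had 1.72 to 7.89 CPM with IMQ and 0.843 to 3.25 CPM with vehicle, and it was not called in KO (log2 2.25 ± 0.55, edgeR adjusted p = 0.142) or in WT (1.69 ± 0.50, adjusted p = 0.253). Ucp1, with 16 counts in the 4 IMQ libraries and 41 in the 6 vehicle libraries, failed the count filter and was not tested. None of the 6 tested genes of this list was called in either genotype.

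Other tissues that lie near ganglia gave these summed levels, each with no gene called. Epineurial and perineurial genes, led by Itgb4 and Moxd1, summed to 257 to 263 CPM in KO IMQ ganglia, against 209 to 236 CPM in KO vehicle ganglia, and to 203 to 247 CPM in WT IMQ ganglia, against 238 to 256 CPM in WT vehicle ganglia. Bone, cartilage and marrow genes, led by Comp and Ibsp, summed to 19.9 to 24.2 CPM in KO IMQ ganglia, against 20.8 to 37.3 CPM in KO vehicle ganglia, and to 24.4 to 33.3 CPM in WT IMQ ganglia, against 22.4 to 30.3 CPM in WT vehicle ganglia. Connective tissue genes, led by Dcn and Gsn, summed to 2010 to 2260 CPM in KO IMQ ganglia, against 1730 to 2090 CPM in KO vehicle ganglia, and to 2380 to 2770 CPM in WT IMQ ganglia, against 2180 to 2510 CPM in WT vehicle ganglia.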
